A study of Bos taurus with 15 samples.

Results

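In subcutaneous adipose tissue of dairy cows, the transcript of the insulin-regulated glucose transporter SLC2A4 (GLUT4) had its highest counts before calving and its lowest in cows with severe negative energy balance (SNEB) at 1 week peripartum (wkpp). At 16 wkpp its exonic count was 2.77 times as high in cows with moderate negative energy balance (MNEB) as in SNEB cows, a difference called in exonic counts but not on the entire gene, so that SLC2A4 did not pass the test that asks for both. PIK3R1 passed it between -4 wkpp and MNEB at 1 wkpp, with the higher level before calving, and AKT1 between SNEB and MNEB at 16 wkpp, with the higher level in MNEB. AKT2, TBC1D4 and TRIB3 did not pass it in any comparison. These genes belong to a list of 10 genes of insulin signalling and glucose uptake, matched by gene name in the 6 tables of the series. Of the 10, 6 had an entry (PIK3R1, AKT1, AKT2, TBC1D4, SLC2A4 and TRIB3), out of 13896 genes in all. The tables used here hold no entry named INSR, IRS1, IRS2 or FOXO1, and these 4 genes were not analysed here.

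Insulin binding to its receptor leads to tyrosine phosphorylation of the IRS adaptor proteins, which recruit phosphoinositide 3-kinase through its regulatory subunit, encoded by PIK3R1. The lipid product of this kinase brings AKT kinases to the membrane, where they phosphorylate the Rab GTPase-activating protein TBC1D4 and so release vesicles that carry GLUT4 to the cell surface of fat and muscle cells. AKT also keeps the transcription factor FOXO1 out of the nucleus, and TRIB3 is a pseudokinase known to bind AKT and to limit its activation.

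RNA was measured by sequencing in 15 libraries of dewlap fat of primiparous Prim Holstein cows, 3 libraries in each of 5 groups. The first group was sampled about 1 month before calving (-4 wkpp), the time at which the diets began. The other 4 groups were sampled at 1 and 16 wkpp from cows given a low energy diet (LE, named SNEB here) or a high energy diet (HE, named MNEB here) from 1 month before calving. The cows sequenced were the most extreme of each NEB group by energy balance at 1 wkpp, and the labels do not tie libraries of different weeks to one cow. The study describes biopsies of every animal at -4, 1 and 16 wkpp, so libraries of different weeks may come from the same cows. Each library holds all cell types of the biopsy, so that fewer cells of a type and less RNA per cell cannot be told apart.

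Counts of each library were solved from the mean counts of the 6 tables, as described in the methods. The solved exonic reads on genes ranged from 7482630 to 12807782 per library at -4 wkpp, 10764997 to 13222183 in SNEB at 1 wkpp and 11057623 to 14081583 in SNEB at 16 wkpp. The MNEB libraries were shallower in these reads, with 2008116 to 6898903 at 1 wkpp and 2766042 to 7347114 at 16 wkpp. The study lists total reads in a like range for all groups, and a lower uniquely mapped share in every MNEB library than in the others. They also held more spike-in reads (synthetic RNAs added to each sample), 15.0 to 122 per 1000 exonic reads against 0.93 to 7.83 in the other groups. Depth, the uniquely mapped share and NEB group cannot be told apart in these libraries. The sample titles also carry a tag, m1 or m2, that is the same within each group and is not explained in the sources used here. It is m1 at -4 wkpp, in SNEB at 16 wkpp and in MNEB at 1 wkpp, and m2 in the other groups, so that the groups of each comparison other than -4 wkpp against MNEB 1 wkpp differ in this tag. What the tag stands for and these differences cannot be told apart. The adipocyte markers with an entry (14 of 16 listed) were detected in every group, and their summed normalized exonic count ranged from 18760 to 131680. The normalized count is the read count divided by the size factor of the library, over all 15 libraries.

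The 5 groups were set against each other in 6 comparisons of 3 libraries with 3 others, and both comparisons with -4 wkpp share the same 3 libraries. A gene was a differentially expressed gene (DEG) when limma with voom weights gave an adjusted p below 0.01 both for exonic counts and for counts on the entire gene, with the same sign. In MNEB, 1 of the 6 genes was a DEG between -4 and 1 wkpp (PIK3R1), against 1.81% of all genes tested. With exonic counts alone it was 2 of 6 (PIK3R1 and AKT1), against 16.5%, and in 3 of 6 the libraries of the groups did not overlap, against 46.0%. Between SNEB and MNEB at 16 wkpp, 1 of 6 was a DEG (AKT1), against 3.67%. With exonic counts alone it was 2 of 6 (AKT1 and SLC2A4), against 10.4%, and 3 of 6 did not overlap, against 44.1%.

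In SNEB, 0 of 6 genes were DEGs between -4 and 1 wkpp in limma, against 0.0378% of all genes, and 3 of 6 had an unadjusted p below 0.05 in exonic counts, against 14.5%. With exonic counts alone 1 of 6 (SLC2A4) was called, against 0.504%, and 3 of 6 did not overlap, against 19.7%. Between SNEB and MNEB at 1 wkpp, 0 of 6 were DEGs in limma, against 0% of all genes, 3 of 6 had an unadjusted p below 0.05, against 32.3%, and none of the 6 was called with exonic counts alone, against 2.04%. In that comparison 2 of 6 did not overlap, against 39.4%. From 1 to 16 wkpp, 0 of 6 genes were DEGs in either NEB group, by limma with or without voom weights, against 0% of all genes in MNEB and 0% in SNEB. In each NEB group 1 of 6 had an unadjusted p below 0.05, SLC2A4 in MNEB, against 13.5% of all genes, and PIK3R1 in SNEB, against 7.20%. The libraries at 1 and 16 wkpp did not overlap for 1 of 6 genes in MNEB, against 19.6% of all genes, and for 2 of 6 in SNEB, against 12.2%.

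PIK3R1 encodes the regulatory subunit that stabilises the catalytic subunit of phosphoinositide 3-kinase and links it to the IRS proteins. Its normalized exonic counts reached 4152, 4287 and 6576 at -4 wkpp, whereas MNEB libraries of 1 wkpp had 1177, 1654 and 2145. The SNEB libraries had 2097, 2688 and 3193 at 1 wkpp and 3565, 4169 and 4488 at 16 wkpp. The MNEB libraries of 16 wkpp had 1405, 2247 and 2727. The 3 libraries at -4 wkpp were above all libraries at 1 wkpp in both NEB groups, and the 3 SNEB libraries were above the 3 MNEB libraries at 16 wkpp. At 1 wkpp the lowest SNEB library lay below the highest MNEB library.

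PIK3R1 was higher at -4 wkpp than in MNEB at 1 wkpp, by a log2 fold change of 1.61 ± 0.27 (SE) in exonic counts (adjusted p = 0.0019 in limma) and 2.11 ± 0.25 on the entire gene (adjusted p = 0.0078). The call was lost when any 1 of these libraries other than the deepest MNEB library was left out, with an exonic log2 fold change between 1.40 and 1.82. Against SNEB at 1 wkpp the log2 fold change was 0.90 ± 0.24 (adjusted p = 0.114 in limma) in exonic counts and 0.86 ± 0.18 (adjusted p = 0.0939) on the entire gene, which did not pass the threshold. In SNEB against MNEB, the exonic log2 fold change was 0.72 ± 0.27 at 1 wkpp (adjusted p = 0.0993 in limma) and 0.96 ± 0.26 at 16 wkpp (adjusted p = 0.0294 in limma). On the entire gene these differences were 1.26 ± 0.23 (adjusted p = 0.0586 in limma) and 1.14 ± 0.23 (adjusted p = 0.0164 in limma). The order of the group means of PIK3R1 was -4 wkpp, SNEB 16 wkpp, SNEB 1 wkpp, MNEB 16 wkpp and MNEB 1 wkpp, and of these neighbours SNEB 16 wkpp and SNEB 1 wkpp alone did not overlap in exonic counts.

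The share of PIK3R1 reads on the entire gene that were not on exons ranged from 62.3% to 75.0% in the libraries at -4 wkpp and in SNEB, from 40.0% to 66.9% in MNEB at 1 wkpp and from 54.0% to 69.3% in MNEB at 16 wkpp. Normalized counts on the entire gene were 13036, 13569 and 17608 at -4 wkpp, 7659, 7690 and 8871 in SNEB at 1 wkpp, and 2712, 3655 and 4171 in MNEB at 1 wkpp. The SNEB libraries of 16 wkpp had 9654, 13204 and 16538 and those of MNEB 4636, 6451 and 6500. On the entire gene, unlike on exons, SNEB and MNEB libraries of PIK3R1 did not overlap at 1 wkpp. The libraries were made from total RNA without selection of polyadenylated transcripts, so that reads from unspliced transcripts are counted on the entire gene.

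**Figure D1:**
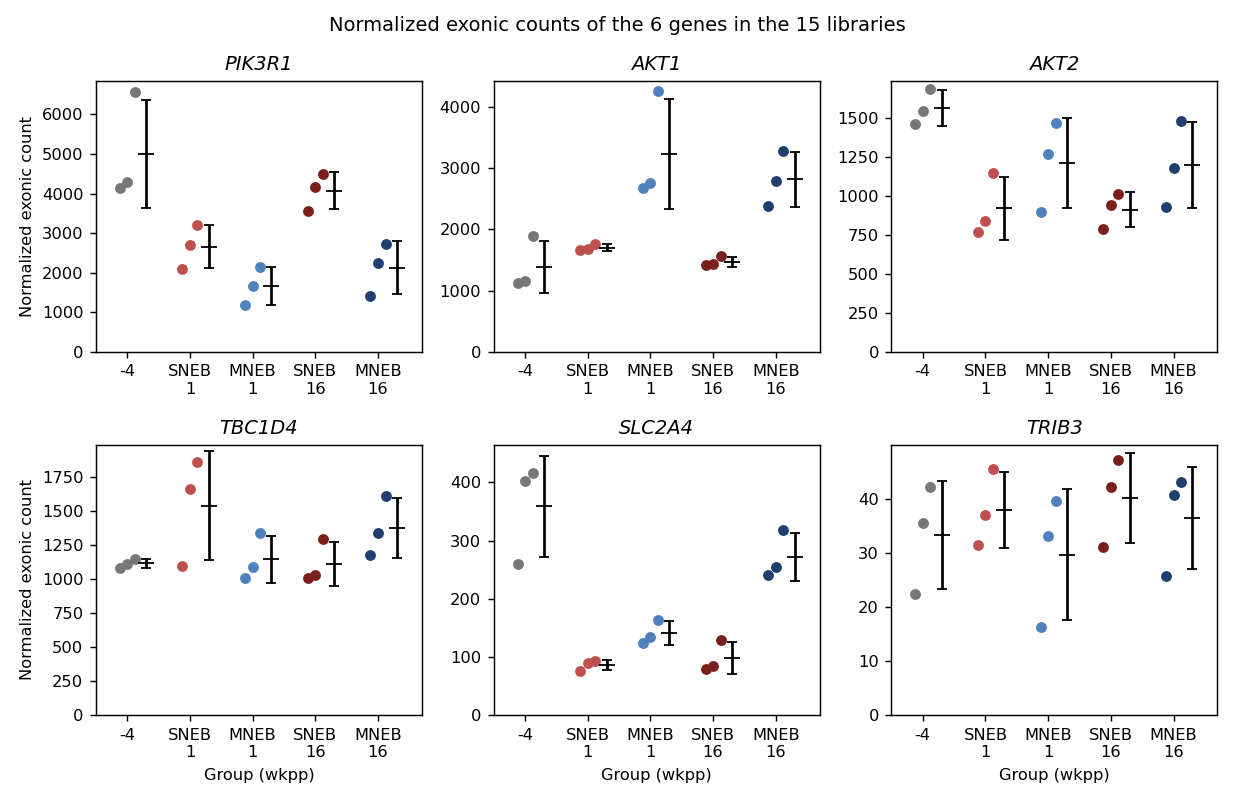
Normalized exonic counts (vertical axis, from 0) of the 6 genes by group, with 1 point for each of the 15 libraries and the mean ± SD (n = 3) beside them. PIK3R1 had its lowest means and AKT1 its highest in the MNEB groups, while the means of SLC2A4 were highest at -4 wkpp and in MNEB at 16 wkpp.

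AKT1 and AKT2 encode the kinases that carry the insulin signal beyond phosphoinositide 3-kinase, and AKT2 is the form known for glucose uptake in fat and muscle. Normalized exonic counts of AKT1 were 1123, 1157 and 1884 at -4 wkpp, 1663, 1684 and 1763 in SNEB at 1 wkpp, and 2672, 2767 and 4263 in MNEB at 1 wkpp. The SNEB libraries of 16 wkpp had 1421, 1426 and 1567 and those of MNEB 2381, 2788 and 3285. All 6 MNEB libraries were above the other 9 libraries.

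At 16 wkpp AKT1 was lower in SNEB than in MNEB, with a log2 fold change of -0.94 ± 0.17 in exonic counts (adjusted p = 0.0054 in limma) and -1.08 ± 0.17 on the entire gene (adjusted p = 0.0078 in limma). Leaving out any 1 of these 6 libraries ended the call, with an exonic log2 fold change between -1.04 and -0.82, as did a single fit of all 15 libraries. At 1 wkpp the difference had a similar size, -0.88 ± 0.22 in exonic counts (adjusted p = 0.0306 in limma) and -0.83 ± 0.20 on the entire gene (adjusted p = 0.0913 in limma), and did not pass the threshold. From -4 to 1 wkpp in MNEB the log2 fold change, first time over second, was -1.22 ± 0.27 in exonic counts (adjusted p = 0.0075 in limma) and -1.31 ± 0.31 on the entire gene (adjusted p = 0.0467 in limma), so that AKT1 was called by exonic counts alone. This exonic call was lost without -4 wkpp library 1 or 3 or MNEB 1 wkpp library 2 or 3, numbered by decreasing depth (adjusted p between 0.0124 and 0.0394 in limma). Against SNEB at 1 wkpp the log2 fold change was -0.34 ± 0.21 (adjusted p = 0.540 in limma). The share of AKT1 reads outside exons was between 7.27% and 33.0% in the 15 libraries.

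AKT2 had normalized exonic counts of 1459, 1542 and 1686 at -4 wkpp, 769, 839 and 1148 in SNEB at 1 wkpp and 784, 940 and 1008 in SNEB at 16 wkpp. The MNEB libraries had 893, 1267 and 1463 at 1 wkpp and 930, 1176 and 1481 at 16 wkpp. All SNEB libraries were below those at -4 wkpp, which overlapped with MNEB at both times. For SNEB 1 wkpp, the log2 fold change of AKT2 (-4 wkpp over 1 wkpp) was 0.79 ± 0.19 in exonic counts (unadjusted p = 0.0025, adjusted p = 0.0840 in limma) and 0.55 ± 0.17 on the entire gene (adjusted p = 0.276 in limma). AKT2 was not a DEG in any of the 6 comparisons. Where AKT1 differed between NEB groups at 16 wkpp, the exonic log2 fold change of AKT2 was -0.37 ± 0.20 (adjusted p = 0.206 in limma), and the difference between the AKT1 and AKT2 values was not tested.

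**Figure D2:**
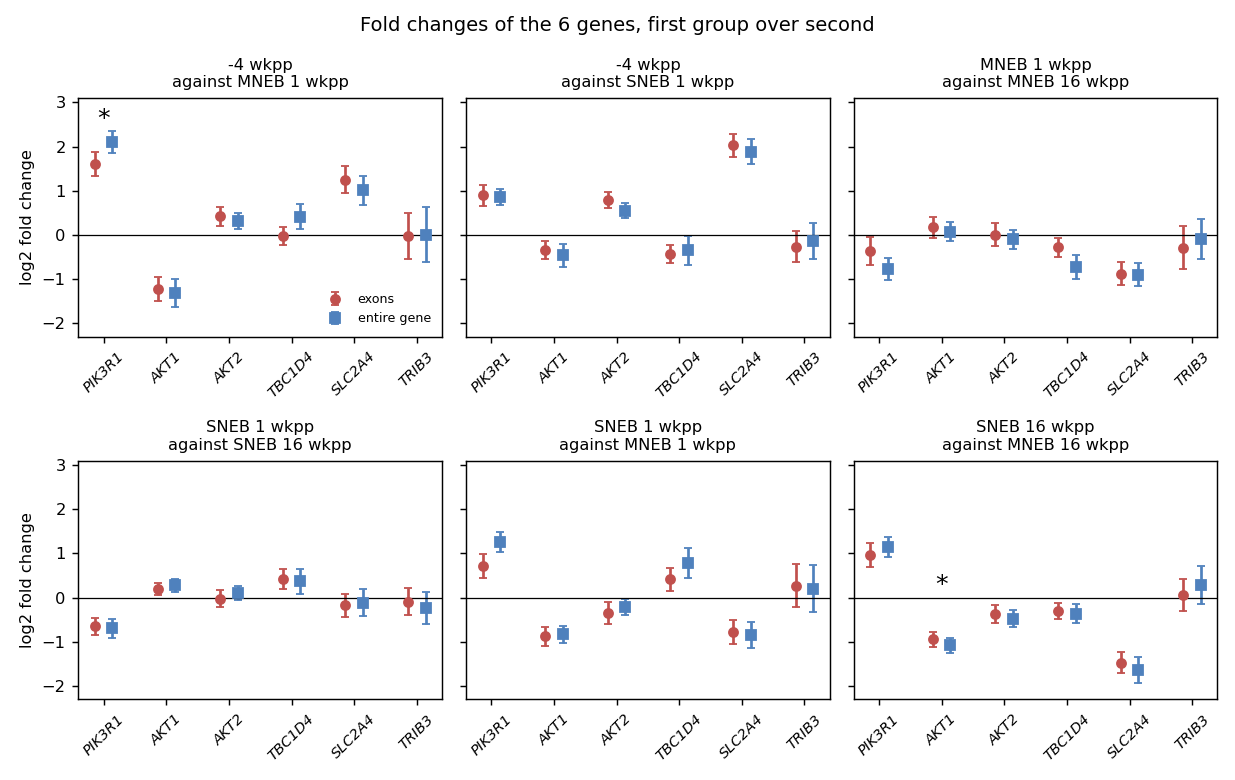
Log2 fold changes (vertical axis, first group over second, with bars of ± 1 SE) of the 6 genes in the 6 comparisons, from exonic counts (circles) and counts on the entire gene (squares). The stars mark the 2 DEGs, PIK3R1 between -4 wkpp and MNEB 1 wkpp and AKT1 between SNEB and MNEB at 16 wkpp.

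TBC1D4, also known as AS160, is the AKT substrate that holds GLUT4 vesicles inside the cell until it is phosphorylated. Its normalized exonic counts were 1082, 1114 and 1152 at -4 wkpp, 1096, 1662 and 1865 in SNEB at 1 wkpp, and 1011, 1088 and 1340 in MNEB at 1 wkpp. The SNEB libraries of 16 wkpp had 1013, 1030 and 1297 and those of MNEB 1176, 1343 and 1611. The exonic counts of TBC1D4 overlapped in all 6 comparisons, and its exonic log2 fold changes lay between -0.43 and 0.42. Between 68.2% and 85.1% of its reads lay outside exons. On the entire gene, counts in MNEB were 3364, 3792 and 5383 at 1 wkpp and 5699, 5775 and 8750 at 16 wkpp, without overlap, and the log2 fold change of -0.72 ± 0.27 did not pass the test (adjusted p = 0.393 in limma). The SNEB libraries of 16 wkpp had 4495, 5388 and 5652 on the entire gene, all below those of MNEB, with a log2 fold change of -0.36 ± 0.21 that did not pass the test either (adjusted p = 0.294 in limma).

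SLC2A4 encodes GLUT4, the transporter through which insulin raises glucose uptake in adipocytes and muscle. Its normalized exonic counts were 259, 402 and 416 at -4 wkpp, from 424 to 723 reads per library. After calving, at 1 wkpp, the SNEB libraries had 75.7, 89.5 and 92.9 and those of MNEB 125, 135 and 164, where the shallowest library had 34 reads. The counts of 16 wkpp were 79.0, 85.2 and 130 for SNEB and 242, 255 and 319 for MNEB. The 3 libraries at -4 wkpp were above all libraries at 1 wkpp, and the MNEB libraries were above the SNEB libraries at both times. The order of the group means was -4 wkpp, MNEB 16 wkpp, MNEB 1 wkpp, SNEB 16 wkpp and SNEB 1 wkpp, and MNEB 16 wkpp and MNEB 1 wkpp were the only neighbours without overlap. The highest mean was 4.17 times the lowest. On the entire gene the means at -4 wkpp and in MNEB at 16 wkpp were 370 and 348, with overlap of the libraries.

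The log2 fold change of SLC2A4 between -4 wkpp and SNEB 1 wkpp was 2.03 ± 0.26 in exonic counts (adjusted p = 0.0089 in limma) and 1.88 ± 0.28 on the entire gene (adjusted p = 0.0370 in limma). Against MNEB 1 wkpp it was 1.25 ± 0.30 (adjusted p = 0.0103 in limma) in exonic counts and 1.01 ± 0.33 (adjusted p = 0.108 in limma) on the entire gene. SNEB against MNEB at 16 wkpp gave -1.47 ± 0.24 in exonic counts (adjusted p = 0.0037 in limma) and -1.64 ± 0.29 on the entire gene (adjusted p = 0.0109 in limma). The same difference at 1 wkpp was -0.77 ± 0.27 (adjusted p = 0.0827 in limma) and -0.84 ± 0.30 (adjusted p = 0.193 in limma). SLC2A4 was thus called by exonic counts against SNEB at 1 wkpp and between NEB groups at 16 wkpp, and missed the call on the entire gene in both. The entire gene added few reads to this gene, with between 6.52% and 18.2% of its reads outside exons.

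From 1 to 16 wkpp, SLC2A4 in MNEB had a log2 fold change, 1 over 16 wkpp, of -0.88 ± 0.26 in exonic counts (unadjusted p = 0.0073, adjusted p = 0.266 in limma), with no overlap of the libraries. In SNEB it was -0.17 ± 0.26 (adjusted p = 0.863 in limma), and the libraries overlapped. The difference between these changes, SNEB minus MNEB, was 0.69 ± 0.35 (unadjusted p = 0.0705, adjusted p = 0.989 in limma), so that no difference in recovery was detectable at this depth and number of libraries. None of the 6 genes passed this test of the difference in limma, against 0% of all genes, and with voom weights or without them the count was 0. TBC1D4 alone had an unadjusted p below 0.05 in exonic counts, 1 of 6 against 4.92% of all genes, with a difference of 0.70 ± 0.31 (unadjusted p = 0.0410, adjusted p = 0.989 in limma). On the entire gene the difference for TBC1D4 was 1.10 ± 0.41 (unadjusted p = 0.0214, adjusted p = 0.992 in limma).

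TRIB3 encodes the pseudokinase that can hold AKT in check, and is induced by cellular stress. It was measured on few reads, between 6 and 84 per library on exons. Its normalized exonic counts were 22.4, 35.4 and 42.0 at -4 wkpp, 31.3, 36.9 and 45.4 in SNEB at 1 wkpp, and 16.2, 33.1 and 39.6 in MNEB at 1 wkpp. The counts of 16 wkpp were 31.0, 42.1 and 47.1 for SNEB and 25.7, 40.6 and 43.0 for MNEB. All groups overlapped, and the exonic log2 fold changes lay between -0.28 and 0.27 with SE between 0.31 and 0.53. Differences of the size of these errors, and also larger ones, could go undetected at this depth.

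Of 68 other genes listed for the insulin signalling pathway, 54 had an entry, and between 50 and 52 were tested in each comparison. Between -4 wkpp and MNEB 1 wkpp, 1 of 52 was a DEG and higher before calving, against 1.81% of all genes tested. This was ENPP1, a membrane enzyme known to bind the insulin receptor and dampen its signal, with normalized exonic counts of 2920, 3559 and 4388 at -4 wkpp and 639, 719 and 843 in MNEB at 1 wkpp. The log2 fold change was 2.28 in exonic counts (adjusted p = 1.9e-04 in limma) and 2.77 on the entire gene (adjusted p = 0.0052). The median exonic log2 fold change of the list was -0.27 against 0.04 for all genes tested, with 36 of 52 genes lower at -4 wkpp, 9 of them called by exonic counts alone. With the 1 gene called higher, exonic counts called 10 of 52, against 16.5% of all genes.

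Between SNEB and MNEB at 16 wkpp, 2 of 50 genes of that list were DEGs, both lower in SNEB, against 3.67% of all genes, where 265 of 372 DEGs were lower in SNEB. DEPTOR, an inhibitory partner of the mTOR kinase, had counts of 110, 126 and 161 in SNEB and 436, 573 and 598 in MNEB at 16 wkpp, with a log2 fold change of -1.99 in exonic counts (adjusted p = 7.8e-04 in limma), and -1.002 on the entire gene (adjusted p = 0.0076). PPP1R3C, which targets protein phosphatase 1 to glycogen, had counts of 489, 505 and 548 in SNEB and 909, 1059 and 1286 in MNEB, with a log2 fold change of -1.05 in exonic counts (adjusted p = 0.0033 in limma). Exonic counts alone called 5 of 50 there, all lower in SNEB, against 10.4% of all genes. In the other 4 comparisons 0 genes of the list were DEGs in limma. An unadjusted p below 0.05 in exonic counts was found for 16 of 52 between SNEB and MNEB at 1 wkpp (against 32.3% of all genes), 10 of 50 between -4 wkpp and SNEB 1 wkpp (against 14.5%), and 7 and 3 of 50 from 1 to 16 wkpp in MNEB and SNEB (against 13.5% and 7.20%). Exonic counts alone called 2 of 52 between SNEB and MNEB at 1 wkpp, against 2.04%, which were DEPTOR (log2 fold change -2.16 ± 0.24, adjusted p = 0.0054 in limma) and RPTOR, the mTOR partner protein (-1.14 ± 0.19, adjusted p = 0.0098 in limma), both lower in SNEB. For RPTOR the log2 fold change on the entire gene was 0.063. The 4 median log2 fold changes lay between -0.18 and 0.08, against -0.03 to 0.07 for all genes tested.

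Of 36 genes listed for the traffic of GLUT4 vesicles, 22 had an entry and were tested. One of 22 was a DEG, between SNEB and MNEB at 16 wkpp (against 3.67% of all genes), and 0 of 22 were in the other 5 comparisons in limma. At an unadjusted p below 0.05 there were 14 of 22 between SNEB and MNEB at 16 wkpp (against 38.4% of all genes) and 10 at 1 wkpp (against 32.3%), 11 between -4 and 1 wkpp in MNEB (against 42.1%) and 1 in SNEB (against 14.5%), and 1 and 3 from 1 to 16 wkpp in MNEB and SNEB (against 13.5% and 7.20%). The DEG was MYO1C, an unconventional myosin that helps GLUT4 vesicles to reach the membrane, with normalized exonic counts of 3075, 3294 and 3368 in SNEB and 6895, 8056 and 8281 in MNEB. Its log2 fold change was -1.24 in exonic counts (adjusted p = 0.0017 in limma) and -1.36 on the entire gene (adjusted p = 0.0029). With exonic counts alone 6 of 22 were called between -4 wkpp and MNEB 1 wkpp, against 16.5% of all genes, with TUSC5 higher at -4 wkpp and EXOC3, MEF2D, MYO1C, TBC1D1 and VAMP2 lower. At 16 wkpp 2 of 22 were called that way, MYO1C and MEF2D, both lower in SNEB, against 10.4%. MYO1C, SLC2A4, AKT1, DEPTOR and PPP1R3C all had lower counts in SNEB than in MNEB at 16 wkpp, while the count of PIK3R1 was higher.

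Among 12 other glucose transporters listed, 11 had an entry and 7 or 8 were tested, of which 0 were DEGs in the 6 comparisons in limma. The most at an unadjusted p below 0.05 were 5 of 8, between -4 wkpp and MNEB 1 wkpp, against 42.1% of all genes. Between -4 wkpp and SNEB 1 wkpp it was 1 of 8 (against 14.5%). From 1 to 16 wkpp it was 2 of 7 in MNEB and 1 of 8 in SNEB (against 13.5% and 7.20%). Between SNEB and MNEB it was 2 of 8 at 1 wkpp and 3 of 8 at 16 wkpp (against 32.3% and 38.4%). SLC2A1, the GLUT1 transporter that works without insulin, varied widely within groups, with normalized exonic counts from 204 to 770 at -4 wkpp, from 59.4 to 257 in MNEB at 1 wkpp and from 131 to 1075 in MNEB at 16 wkpp. All 7 transporters tested between 1 and 16 wkpp in MNEB had a log2 fold change below 0, with a median of -0.60 against 0.00 for all genes tested. In SNEB 4 of 8 were below 0.

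Of 17 genes listed as targets of FOXO1, 15 had an entry. Between -4 wkpp and MNEB 1 wkpp 1 of 13 tested was a DEG, against 1.81% of all genes. PCK1, the phosphoenolpyruvate carboxykinase that fat uses for glyceroneogenesis, had normalized exonic counts of 1422, 3562 and 3886 at -4 wkpp and 86.5, 116 and 176 in MNEB at 1 wkpp, a log2 fold change of 4.63 (adjusted p = 2.0e-04 in limma). In SNEB at 1 wkpp PCK1 had 43.8, 65.3 and 129. PDK4, the kinase that inhibits pyruvate dehydrogenase, had its lower counts before calving, with 1773, 1811 and 2013 at -4 wkpp, 6930, 20329 and 21725 in SNEB and 3998, 6198 and 16675 in MNEB at 1 wkpp. It was called by exonic counts alone, with log2 fold changes of -2.96 ± 0.38 against SNEB (adjusted p = 0.0085 in limma) and -1.97 ± 0.43 against MNEB (adjusted p = 0.0069 in limma). Of the 14 targets tested between -4 wkpp and SNEB 1 wkpp, 12 had a log2 fold change below 0, with a median of -0.43 against -0.03 for all genes tested. Against MNEB 1 wkpp it was 8 of 13, with a median of -0.16 against 0.04, and between SNEB and MNEB at 16 wkpp 5 of 14, with a median of 0.41 against 0.03. In the 5 comparisons other than -4 wkpp against MNEB 1 wkpp 0 of these genes were DEGs in limma, with 0 to 7 at an unadjusted p below 0.05, the 7 of 14 both between -4 wkpp and SNEB 1 wkpp (against 14.5% of all genes) and between SNEB and MNEB at 16 wkpp (against 38.4%). None of the 12 tested genes of the integrated stress response, of which TRIB3 is a known target, was a DEG in the 6 comparisons in limma (2 to 5 had an unadjusted p below 0.05, the 5 at 16 wkpp between SNEB and MNEB, against 38.4% of all genes), and their median log2 fold changes lay between -0.35 and 0.05.

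**Figure D3:**
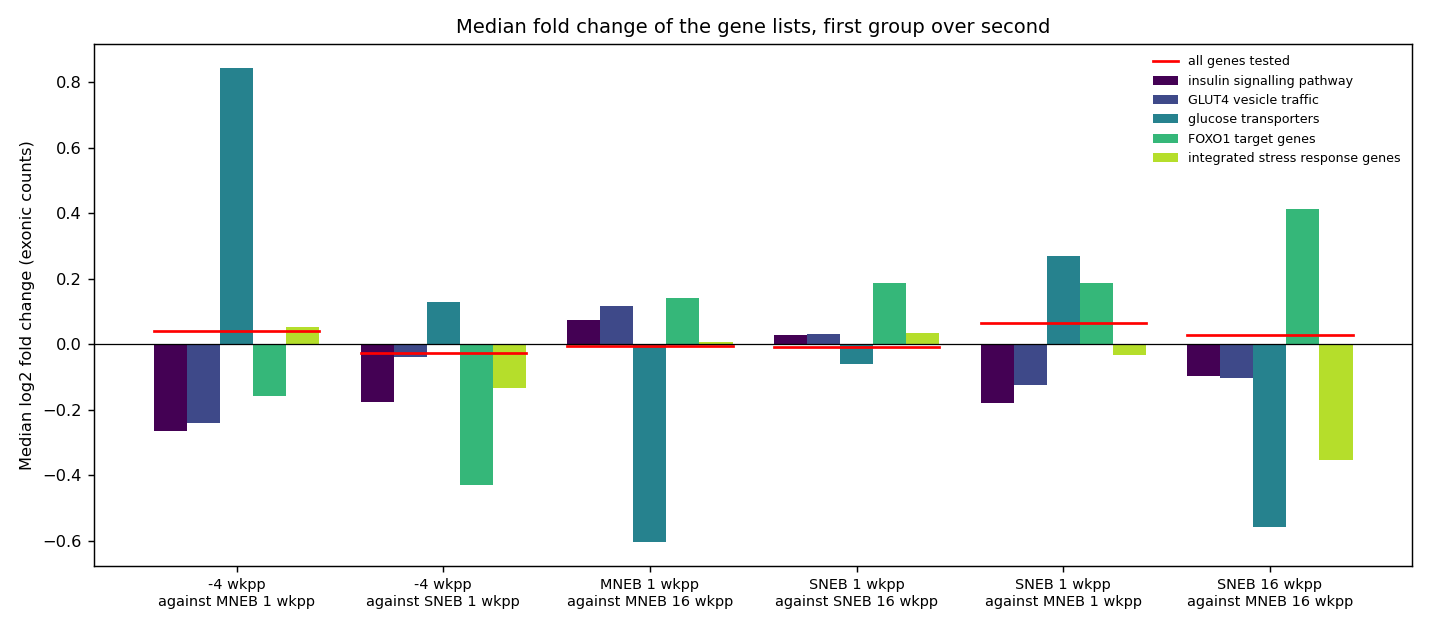
Median log2 fold change of exonic counts (vertical axis, first group over second) over the tested genes of 5 lists in the 6 comparisons, with the median of all genes tested as a red line. The insulin signalling list lay below all genes in 4 comparisons and reached -0.27 between -4 wkpp and MNEB 1 wkpp, and the medians of the glucose transporters, of which none was called, lay between -0.60 and 0.84.

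The fat of the groups also differed in markers of cell types, whose part in the values above was not tested. The adipocyte markers summed to 113060 to 131680 normalized exonic counts at -4 wkpp, 97547 to 128160 in SNEB and 28394 to 95550 in MNEB at 1 wkpp, and 72469 to 77460 in SNEB and 18760 to 70730 in MNEB at 16 wkpp. Of 13 adipocyte markers tested, 8 (AQP7, CIDEA, CIDEC, DGAT2, GPD1, LEP, LPL and THRSP) were DEGs between -4 wkpp and MNEB 1 wkpp, all higher at -4 wkpp, against 1.81% of all genes. Between -4 wkpp and SNEB 1 wkpp 1 of 13 (CIDEA) was a DEG, also higher at -4 wkpp, against 0.0378%. Exonic counts alone called 4 of 14 there (CIDEA, DGAT2, GPD1 and THRSP), all higher at -4 wkpp, against 0.504%. In both comparisons 11 of 13 had an unadjusted p below 0.05, against 42.1% and 14.5% of all genes. The median log2 fold changes were 2.37 against MNEB and 1.39 against SNEB. With exonic counts alone CIDEC, LEP and PLIN1 were called higher in SNEB than in MNEB at 1 wkpp, 3 of 14 tested on exons against 2.04% of all genes. Between SNEB and MNEB at 16 wkpp 0 of 13 were DEGs in limma, with 6 at an unadjusted p below 0.05 in exonic counts, against 38.4% of all genes. In that comparison 8 of the 13 had a log2 fold change above 0 and 5 below 0. Exonic counts alone called 1 of 14, against 10.4% of all genes, which was CIDEC, higher in SNEB with a log2 fold change of 1.66 ± 0.35 (adjusted p = 0.0096 in limma). LEP had 8.57, 12.9 and 41.6 in SNEB and 36.0, 48.7 and 154 in MNEB at 16 wkpp, with overlap.

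GLUT4 is also abundant in skeletal muscle. The 18 muscle markers with an entry (of 20) summed to 5870 to 10752 in MNEB at 16 wkpp and 799 to 2832 in SNEB at 16 wkpp, and to 3694 to 6537 in MNEB and 1664 to 2478 in SNEB at 1 wkpp. Most of this sum was DES and TNNT3. At 16 wkpp TNNT3 was a DEG, 1 of 7 tested against 3.67% of all genes, and lower in SNEB (221 to 335 against 1644 to 3783, log2 fold change -3.28, adjusted p = 5.4e-04 in limma). Of the 7, 2 had a log2 fold change above 0 and 5 below 0. DES had 414 to 2229 in SNEB and 1500 to 8526 in MNEB at 16 wkpp, with overlap. In MNEB at 16 wkpp several other genes of the muscle fibre had low counts that overlapped with those in SNEB. CKM had at most 4.89, MYL1 at most 1.96 and MYH2 at most 3.91 in MNEB, MYLPF and TNNT1 were at 0, and ACTA1 reached 31.3. ATP2A1, the calcium pump of fast fibres, had 85.1, 173 and 198 in MNEB and 3.87, 21.3 and 33.7 in SNEB at 16 wkpp, without overlap. RYR1, the calcium release channel, had 100.2, 311 and 316 in MNEB and 104, 159 and 183 in SNEB. In MNEB at 1 wkpp ATP2A1 had 105 to 165, and ACTA1 reached 94.6, MYH1 51.4 and MYH2 36.7. Exonic counts alone called ATP2A1 and TNNT3 lower in SNEB than in MNEB at 1 wkpp, 2 of 10 tested against 2.04% of all genes. All 10 had a log2 fold change below 0 there. ATP2A1 and TNNT3 were also called that way as lower at -4 wkpp than in MNEB at 1 wkpp, 2 of 10 against 16.5%, with 7 of 10 below 0. At -4 wkpp the muscle sum was 1764, 2066 and 6750. The part of muscle RNA in the SLC2A4 counts was not tested.

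Macrophage markers moved opposite to SLC2A4 at 16 wkpp, with a sum of 22345 to 28626 in SNEB and 2824 to 3778 in MNEB, and 3 of 6 tested (CD163, CSF1R and MSR1) were DEGs, higher in SNEB, against 3.67% of all genes. With exonic counts alone 8 of 9 were called, against 10.4%. Lymph node and lymphatic markers summed to 6244 to 8433 in SNEB and 583 to 1200 in MNEB at 16 wkpp, and CR2, LYVE1 and MMRN1 were DEGs, higher in SNEB, 3 of 11 tested against the same 3.67%. LYVE1 was also a DEG and higher at -4 wkpp than in MNEB at 1 wkpp, 1 of 11 tested against 1.81% of all genes. Exonic counts alone called 4 of 11 there (CCL21, CR2, LYVE1 and MMRN1), all higher at -4 wkpp, against 16.5%. Of 10 endothelium markers, 1 (EGFL7) was a DEG between SNEB and MNEB at 16 wkpp, lower in SNEB, against 3.67% of all genes. Exonic counts alone called 2 of 10 there (EGFL7 and TIE1), both lower in SNEB, against 10.4%. Of the 10 markers, 5 had a log2 fold change above 0 and 5 below 0 there. Keratinocyte and erythrocyte markers held 0 DEGs in the 6 comparisons in limma, and each library had at most 864 and 356 counts of them in all. Of the keratinocyte markers, 3 of 5 tested had an unadjusted p below 0.05 between -4 wkpp and SNEB 1 wkpp, against 14.5% of all genes. Their median log2 fold change was 1.59. Exonic counts alone called SFN lower in SNEB than in MNEB at 16 wkpp, 1 of 3 tested against 10.4%. The 1 erythrocyte marker tested at 16 wkpp between SNEB and MNEB had an unadjusted p below 0.05, against 38.4%.

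**Figure D4:**
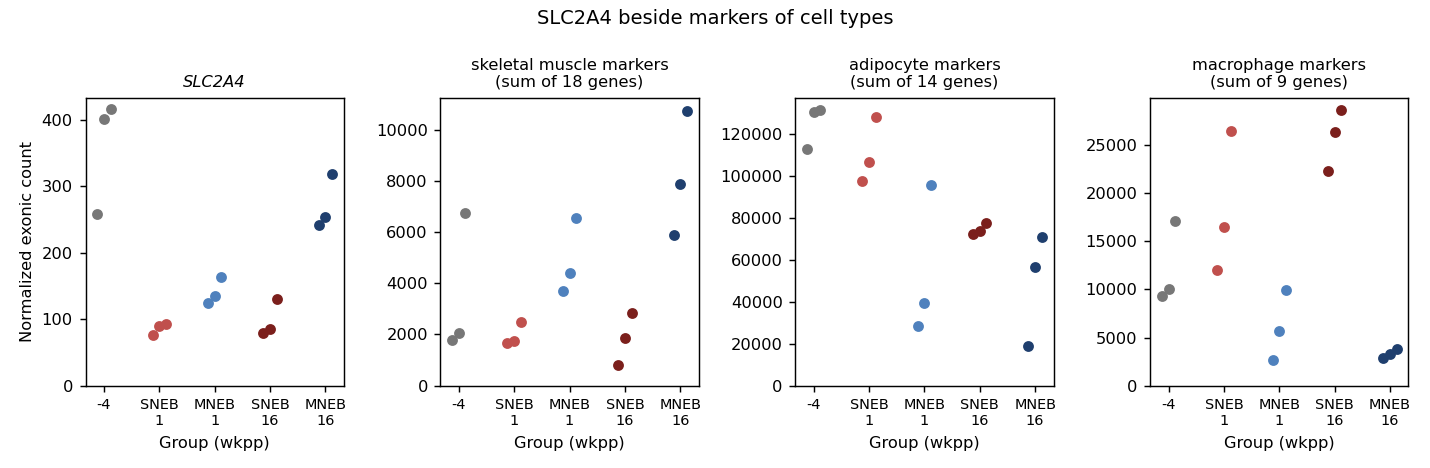
Normalized exonic count of SLC2A4 and of the sums of 18 skeletal muscle, 14 adipocyte and 9 macrophage markers (vertical axes, from 0) by group, with 1 point per library. At 16 wkpp the MNEB libraries were above the SNEB libraries for SLC2A4 and the muscle sum and below them for the adipocyte and macrophage sums. Most of the muscle sum was DES and TNNT3.

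The genes whose levels followed SLC2A4 most closely, by the Pearson correlation of log2 normalized exonic counts over the 15 libraries among 8010 genes, were IDI1 (0.87), HAGH (0.85), MVD (0.83), CTNNB1 (0.79) and CIDEA (0.78). The 15 points share groups and depth, so the correlation is a description. IDI1 and MVD encode enzymes of the mevalonate pathway of isoprenoid and cholesterol synthesis, and CIDEA encodes a lipid droplet protein. IDI1 had means of 410 ± 164 (SD, n = 3) at -4 wkpp, 117 ± 27.4 in SNEB and 190 ± 23.3 in MNEB at 1 wkpp, and 98.2 ± 19.1 in SNEB and 298 ± 110 in MNEB at 16 wkpp. This is the same order of groups as for SLC2A4 except that both SNEB groups changed places. CIDEA was a DEG and higher at -4 wkpp than at 1 wkpp in both NEB groups (log2 fold changes of 2.79 against MNEB, adjusted p = 8.0e-04, and 3.26 against SNEB, adjusted p = 0.0041 in limma).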

How the data were processed

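Dewlap fat of 15 samples was sequenced as stranded total RNA. Per the labels and the submitters' processing notes, the authors used bcl2fastq 2.15.0, cutadapt 1.3, TopHat2, HTSeq and DESeq2 on bosTau8. The 6 deposited tables hold, for exons and for entire genes, a mean normalized count over 6 libraries, and the log2 fold changes, standard errors, test statistics and p-values of the authors, which were not used (0 columns belonged to other samples). The mean is a weighted sum of whole read counts, and 15 counts per gene were solved from the 6 means by lattice reduction (sympy 1.14.0). Libraries were placed in groups by the tables that share them, and their cow within a group is unknown. They were numbered 1 to 3 by decreasing depth. Of 13661 genes with exonic reads 13651 were solved (99.9%), and of 13353 on entire genes 13340. The solution was proven to be unique for 13614 and 13133 of these, the 6 members included in both. Size factors recomputed from the solved counts differed from those in the means by at most 0.0503% and 0.109%. The method was tested on simulated data.

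Each comparison was fitted to its own 6 libraries with limma 3.58.1 (voom weights, median-of-ratios size factors, R 4.3.3) for genes with a mean of at least 10, separately for exons and entire genes, with Benjamini-Hochberg adjustment over all genes. The difference of the changes from 1 to 16 wkpp used 12 libraries. Replicates are 3 separate libraries per group, which limits the precision. Libraries of different weeks may come from the same cows, and the fits treated all libraries as independent. All listed genes were described, and other genes were named when a DEG in a list, as a defining marker of muscle or fat, or as one of the 5 nearest to SLC2A4. SLC2A1, PDK4 and the listed genes called by exonic counts alone were chosen after their values were seen. The members and the lists were chosen with earlier results of these data known. Alternatives were an adjusted p below 0.05, either count alone, scaling to total counts, no filter, limma without voom weights, all 15 libraries in one fit, and leaving out libraries. No gene lengths or sequences of this build were used.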

Additional observations from a re-analysis of the deposited data

How the results depend on the processing

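The 2 calls sat close to the threshold. Between -4 wkpp and MNEB 1 wkpp the number of called genes of the 6 was 2 at an adjusted p below 0.05, 2 with exonic counts alone and 2 with all 15 libraries in one fit (PIK3R1 and AKT1 each time, against 10.2%, 16.5% and 10.4% of all genes), 0 without the filter (against 0.492%), and 0 to 1 when single libraries were left out, with the call of PIK3R1 kept without MNEB 1 wkpp library 1 only. Of all genes, 221 were called without that library and at most 3 without any other. Its exonic log2 fold change stayed between 1.40 and 1.82 there. Between SNEB and MNEB at 16 wkpp it was 3 at an adjusted p below 0.05 (AKT1, PIK3R1 and SLC2A4), 2 with exonic counts alone, 2 with total counts and 2 without voom weights (AKT1 and SLC2A4), 0 without the filter (of all genes 13.3%, 10.4%, 3.73%, 4.60% and 2.08%), and 0 when any single library was left out (34 to 122 of all genes), where the exonic log2 fold change of AKT1 lay between -1.04 and -0.82. With all 15 libraries 1 gene was called, SLC2A4 and not AKT1 (against 4.68%). Between -4 wkpp and SNEB 1 wkpp it was 1 (SLC2A4) at an adjusted p below 0.05, with exonic counts alone and with all 15 libraries (against 0.623%, 0.504% and 0.223%). Without the MNEB libraries of a size factor below 0.5, chosen after seeing the data, which leaves 1 MNEB library per group assumed to vary like the others, 0 of the 6 and 0% of all genes were called in both comparisons, with log2 fold changes of 2.02 for PIK3R1 and -0.70 for AKT1. The change from 1 to 16 wkpp in MNEB had no residual degrees of freedom without these libraries and was not run. The cause of these changes was not tested. The other counts of called genes stayed at 0.

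Values near 0 changed sign. On entire genes these were 0.41 for TBC1D4 and 0.0097 for TRIB3 (-4 wkpp against MNEB 1 wkpp), -0.10 and 0.10 for AKT2 (1 against 16 wkpp in MNEB and SNEB), and 0.086 for PIK3R1 and -0.12 for TRIB3 (difference of changes). Without the filter they were 0.0023 for TRIB3 (-4 wkpp against MNEB 1 wkpp) and -9.9e-05 for AKT2 (MNEB, 1 against 16 wkpp), with total counts 0.022 and -0.014 for AKT2 (SNEB, 1 against 16 wkpp, and difference), without voom weights 0.22 for TRIB3 (-4 wkpp against MNEB 1 wkpp) and -0.0091 for AKT2 (difference), and with all libraries -0.0071 for AKT2 (MNEB, 1 against 16 wkpp). Without the shallow libraries they were 0.010 for AKT2 and -0.085 for TRIB3 (SNEB against MNEB, 1 wkpp) and -0.12 for TRIB3 (16 wkpp). Leaving out single libraries gave, against MNEB 1 wkpp, -0.12 to 0.13 for TBC1D4 and -0.31 to 0.45 for TRIB3, and -0.42 to 0.0053 for TRIB3 against SNEB 1 wkpp. From 1 to 16 wkpp it gave -0.043 to 0.28 for AKT1 and -0.17 to 0.19 for AKT2 in MNEB, and -0.19 to 0.10 for AKT2, -0.32 to 0.041 for SLC2A4 and -0.24 to 0.025 for TRIB3 in SNEB. Between NEB groups it gave -0.0058 to 0.71 at 1 wkpp and -0.10 to 0.26 at 16 wkpp for TRIB3, and for the difference -0.079 to 0.26 for AKT1, -0.21 to 0.17 for AKT2 and -0.075 to 0.61 for TRIB3. No paired analysis was possible because the solved libraries carry no number of a cow.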
